A study of Caenorhabditis elegans with 2 samples.

Results

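The 9 genes described here, cts-1, aco-2, idh-1, idha-1, idhb-1, ogdh-1, fum-1, mdh-1 and mdh-2, encode enzymes of the citric acid cycle of the nematode Caenorhabditis elegans or their cytosolic counterparts. They are 9 of the 19973 protein-coding genes on the nuclear chromosomes in the annotation. They were listed by symbol and not picked by a measured value, but with earlier results of these data known. All 9 symbols were found. The question asked of each was whether the tagged nuclear hormone receptor NHR-90 gave a chromatin immunoprecipitation (ChIP-seq) peak at its promoter. The series holds 2 samples, biological replicates 1 and 2, which form 1 group of whole hermaphrodite L1 larvae of strain OP483, with the genotype unc-119(tm4063) III; wgIs483. Both carry a stable transgene encoding NHR-90 with a C-terminal GFP-FLAG tag. The larvae were synchronised by starvation after bleaching and are labelled as 6 h past that step, and chromatin sheared by sonication was precipitated with an antibody against GFP. The promoter that drives the tagged protein and the cells that make it are not given in the labels, and no untagged strain is compared here. In whole animals, strong occupancy in few cells and weak occupancy in many cannot be told apart.

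The citric acid cycle runs in the mitochondrial matrix. Citrate synthase joins acetyl-CoA to oxaloacetate, and aconitase, isocitrate dehydrogenase, oxoglutarate dehydrogenase, succinyl-CoA ligase, succinate dehydrogenase, fumarase and malate dehydrogenase return the product to oxaloacetate while reducing NAD and a quinone for the respiratory chain. The mitochondrial enzymes are encoded in the nucleus and imported. Nuclear hormone receptors are transcription factors, many of which bind DNA at the half-site AGGTCA or at variants of it.

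The authors' final peak list, called optimal here, held peaks at the promoters of 6 of these genes. The 101 bases round each summit are shown because they are the DNA at which the signal was highest, each read 5′ to 3′ on the strand of its gene from the ce11 genome (RefSeq WBcel235). Capitals mark a match to AGGTCA on either strand, which of these windows only that of fum-1 holds; the other motifs searched, named with their counts further on, had no match in them.
cts-1 (chrIII:10217032-10217132, strand −): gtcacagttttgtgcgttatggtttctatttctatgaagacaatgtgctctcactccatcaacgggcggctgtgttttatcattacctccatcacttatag
aco-2 (chrIII:7973357-7973457, strand +): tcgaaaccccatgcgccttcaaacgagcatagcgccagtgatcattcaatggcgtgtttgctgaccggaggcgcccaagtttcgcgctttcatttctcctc
idhb-1 (chrX:14174001-14174101, strand −): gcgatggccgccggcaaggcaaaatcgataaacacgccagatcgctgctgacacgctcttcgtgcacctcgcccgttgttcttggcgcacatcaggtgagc
idh-1 (chrIV:9441087-9441187, strand −): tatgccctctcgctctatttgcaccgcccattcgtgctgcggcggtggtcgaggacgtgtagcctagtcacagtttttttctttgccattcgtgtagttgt
fum-1 (chrIII:7465473-7465573, strand +): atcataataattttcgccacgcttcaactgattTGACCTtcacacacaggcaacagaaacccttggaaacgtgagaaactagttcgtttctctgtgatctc
mdh-2 (chrIII:6608267-6608367, strand −): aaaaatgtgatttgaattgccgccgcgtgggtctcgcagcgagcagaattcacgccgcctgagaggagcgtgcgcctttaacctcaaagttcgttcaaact

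Of the 9 genes, 6 had an optimal summit in the promoter window, which reaches from 1000 bp before a transcript 5′ end to 200 bp past it. They were cts-1, aco-2, idhb-1, idh-1, fum-1 and mdh-2, while idha-1, ogdh-1 and mdh-1 had none. The share was 66.7%. Its exact Clopper-Pearson 95% interval, 29.9 to 92.5, treats the 9 genes as independent random draws, which a chosen list is not, and covers no error of the peak calls. The same rule gave 14.7% of all protein-coding genes (2927 of 19973). Genes with a symbol of letters and a number had an optimal summit in 18.4% of cases. No test was made of this difference, since the samples form 1 group and the genes were listed with earlier results of these data known. The optimal list holds 4133 peaks, which are the peaks of highest signal among 30000 candidates called on both replicates together, the pooled list. Signal is the authors' value per peak, without a stated scale, so values are compared within a list, and between lists by their ranks, rank 1 being the strongest.

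**Figure D1:**
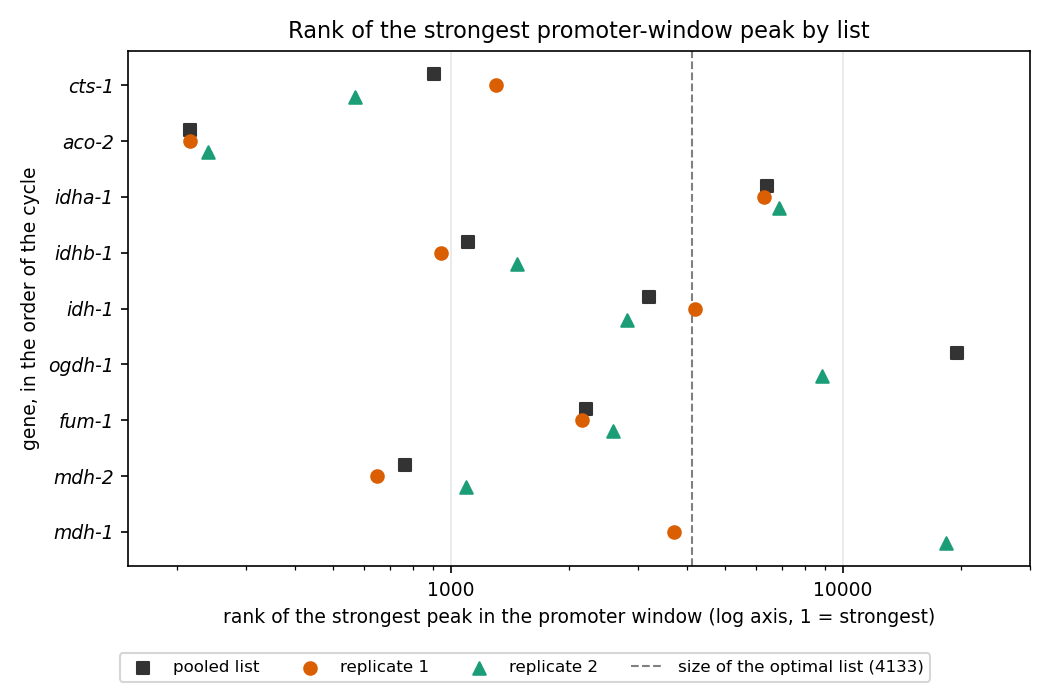
Rank of the strongest peak in the promoter window of each gene (log axis, 1 is strongest) in the pooled list and in replicates 1 and 2, with a dashed line at 4133, the size of the optimal list. The pooled ranks of cts-1, aco-2, idhb-1, idh-1, fum-1 and mdh-2 lie left of the line, between 215 and 3207. No pooled mark is drawn for mdh-1 and no replicate 1 mark for ogdh-1, which had no candidate there.

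At the entry of the cycle, cts-1, the gene for citrate synthase, had an optimal peak at chrIII:10216984-10217270 with a signal of 217.6, rank 902. The signal was 86.8 in replicate 1, rank 1302 of 27854 candidates, and 140.1 in replicate 2, rank 567 of 26708. Of the 6 genes with an optimal summit, cts-1 differed most between the replicates, with ranks 2.30-fold apart. The median ratio over the 4121 optimal peaks with a partner in each replicate was 1.34, and 7.43% of them had a ratio as high or higher. The summit lay 447 bp upstream of the only annotated 5′ end of cts-1, in intergenic DNA and in the window of no other gene (piRNA genes were left out of such counts). The next coding gene upstream, rde-4, which acts in RNA interference, lies on the same strand across a gap of 666 bp.

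The highest signal among the 9 genes was at aco-2, which encodes mitochondrial aconitase. Its optimal peak at chrIII:7973275-7973532 had a signal of 442.3 and rank 215. The ranks were nearly equal in the replicates, 216 in replicate 1 (signal 232.8) and 239 in replicate 2 (205.7). This summit lay 310 bp upstream of the nearest aco-2 5′ end but only 21 bp upstream of a 5′ end of eef-1B.1, a translation elongation factor gene on the opposite strand 330 bp away, and inside the noncoding RNA gene F54H12.9. The data do not assign the peak to one of these genes. Replicate 1 had its summit in an untranslated exon of eef-1B.1. If a summit counts only for the gene whose 5′ end is closest, aco-2 has no optimal summit. A second pooled candidate, at a downstream 5′ end of aco-2 (22 bp past it, in an untranslated exon), ranked 4143, just outside the optimal list with a signal of 69.3 against the lowest optimal signal of 69.4. Its replicates differed, at rank 10072 in replicate 1 and 2880 in replicate 2.

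The genes of isocitrate dehydrogenase were unequal. The NAD-dependent mitochondrial enzyme is built of several kinds of subunit, and idhb-1 and idha-1 encode a beta and an alpha subunit. At idhb-1 the optimal peak at chrX:14173985-14174127 had a signal of 190.1, rank 1103, with rank 940 in replicate 1 (signal 107.3) and 1474 in replicate 2 (78.7). Its summit lay 12 bp past a 5′ end, in an untranslated exon of idhb-1 itself, and the summits of the replicates were 3 bp apart. At idha-1 no summit passed the threshold: its strongest pooled candidate had a signal of 47.7, rank 6396. It lay 460 bp upstream, in the noncoding RNA gene F43G9.16 and within the window of the divergent gene lmd-1. The strongest candidates of the replicates had ranks of 6303 in replicate 1 and 6852 in replicate 2, but at summits 181 bp apart, 431 and 250 bp upstream. The nearest optimal summit lay 3830 bp upstream of idha-1, in a coding exon of F43G9.4.

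The gene idh-1 encodes the cytosolic, NADP-dependent isocitrate dehydrogenase, which makes NADPH outside the mitochondrion. Its optimal peak at chrIV:9440937-9441336 had a signal of 85.3, rank 3207, the lowest of the 6. The replicates ranked it 4195 (replicate 1, signal 35.7) and 2811 (replicate 2, 49.6), so in replicate 1 it fell just outside the 4133 strongest peaks. The summit was intergenic, 30 bp upstream of the outermost of 3 annotated 5′ ends, and in the window of no other gene.

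The gene ogdh-1 encodes the E1 subunit of oxoglutarate dehydrogenase, which decarboxylates 2-oxoglutarate. It had no optimal summit in its window and the weakest pooled candidate of the 8 genes that had one, with a signal of 21.2 and rank 19526, in a coding exon 69 bp past a 5′ end. Replicate 2 had a candidate there (20.8, rank 8862) and replicate 1 had none in the window. An optimal peak did lie further upstream, at chrIV:4705238-4705637 with a signal of 97.9 and rank 2735. Its summit was intergenic, 1427 bp before the 5′ end of ogdh-1 and in the promoter window of no other gene.

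Fumarase, which hydrates fumarate to malate, is encoded by fum-1. Its optimal peak at chrIII:7465323-7465722 had a signal of 117.4, rank 2216, with rank 2165 in replicate 1 (61.6) and 2584 in replicate 2 (53.1). The summit was intergenic, 82 bp upstream of the 5′ end, and the summits of the replicates fell on the same base, 104 bp upstream. The noncoding RNA gene H14A12.8 also had this summit in its window.

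The malate dehydrogenases differed. At mdh-2, the gene of the mitochondrial enzyme that closes the cycle, the optimal peak at chrIII:6608233-6608428 had a signal of 239.5, rank 762, the second highest of the 9 genes. Replicate 1 ranked it 647 (134.6) and replicate 2 ranked it 1094 (96.5), with summits 4 bp apart. The summit lay 211 bp upstream of mdh-2 and 305 bp upstream of the divergent gene F20H11.4. A weaker optimal peak of mdh-2 lay outside the window, in an intron 711 bp past the 5′ end (signal 74.5, rank 3784). At mdh-1, the gene of the cytosolic enzyme of the malate-aspartate shuttle, no pooled candidate had its summit in the window. The replicates disagreed there: replicate 1 ranked its strongest window peak 3698 (39.6) and replicate 2 ranked its own 18335 (13.1). Replicate 1 had a second window candidate 763 bp upstream (36.3, rank 4116), whose interval overlaps the optimal peak described next. An optimal peak at chrV:6517353-6517752 (signal 106.0, rank 2501) had its summit 1027 bp upstream of mdh-1, 27 bp beyond the window, and within that of F46E10.3. The strongest replicate peaks overlapping it ranked 3995 in replicate 1 and 1600 in replicate 2.

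**Figure D2:**
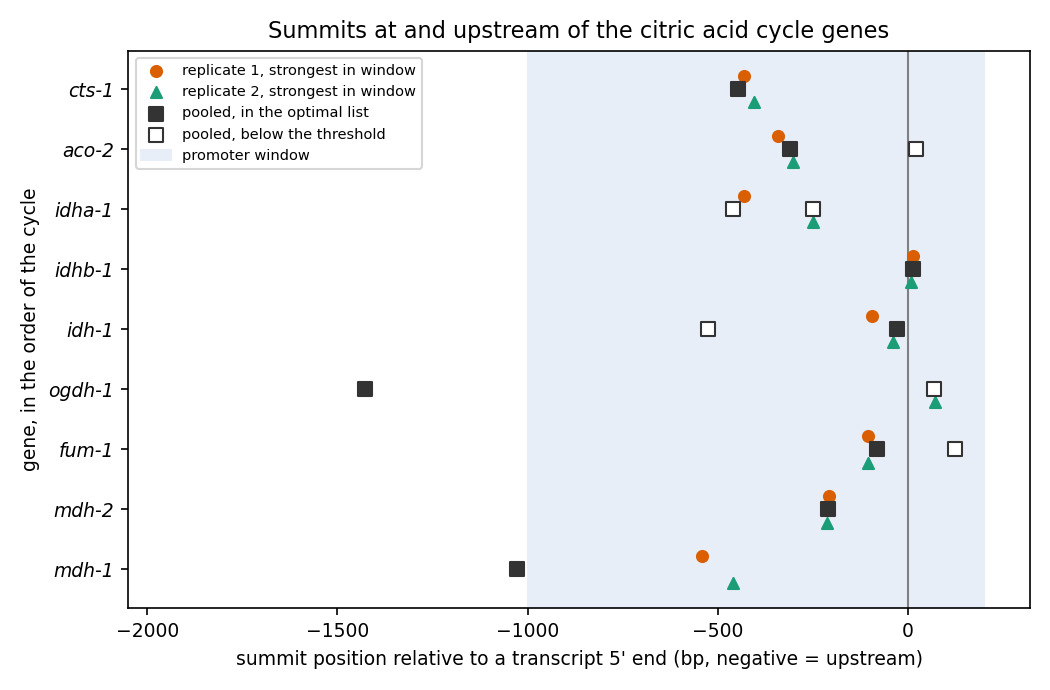
Position of summits relative to a transcript 5′ end of each gene (bp, negative is upstream); filled squares are pooled summits in the optimal list, open squares pooled summits below its threshold, and circles and triangles the strongest window summit of replicates 1 and 2. The shaded band is the promoter window; the filled squares of ogdh-1 at −1427 and mdh-1 at −1027 lie outside it.

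The count of 6 was recomputed in each replicate and with other rules. Among the 4133 strongest peaks of replicate 1 the count was also 6, but with mdh-1 in place of idh-1, against 14.7% of all protein-coding genes. With those of replicate 2 it was 6, the same genes as in the optimal list, against 14.3%. A window of 2000 bp upstream gave 8 genes, adding ogdh-1 and mdh-1, while the share of all protein-coding genes was 18.7%. Among all candidates, 8 genes had a pooled summit in the window, against 45.4% of protein-coding genes, and 8 had one in each replicate, against 33.5%. By their names the candidate lists include background as well as peaks.

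Among the 6 optimal peaks at these genes the ranks in the replicates differed by 1.11 to 2.30-fold, with a median of 1.53, and their summits by a median of 14.5 bp. Over all 4121 matched optimal peaks the medians were 1.34 and 20 bp. Replicate 1 gave the better rank at aco-2, idhb-1, fum-1 and mdh-2, and replicate 2 at cts-1 and idh-1. The optimal list was made from both replicates, so their likeness at its peaks is not independent of how the list was made.

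**Figure D3:**
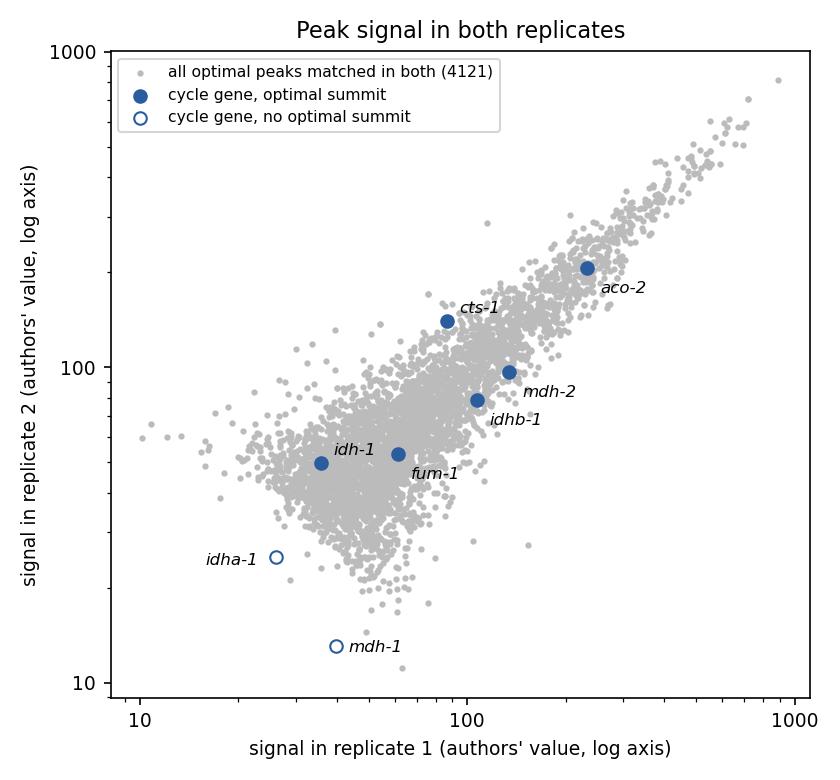
Signal in replicate 2 against signal in replicate 1 (the authors' values, log axes) for the 4121 optimal peaks matched in both (grey) and for the strongest window peak of the cycle genes (blue, open where there is no optimal summit). The optimal peaks of the genes lie within the grey cloud, with cts-1 (86.8 in replicate 1 and 140.1 in replicate 2) at its upper edge, while mdh-1 (39.6 in replicate 1 and 13.1 in replicate 2) lies at its lower edge. The scales of the replicates may differ, so a gene's place is read against the cloud; ogdh-1 has no candidate in replicate 1 and is not drawn.

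The positions of the summits were compared with those at other genes. Of the 6, 5 were upstream of the nearest 5′ end in whose window they fell and 1, at idhb-1, lay past it; the range was −447 to 12 bp with a median of −146. For all 2927 protein-coding genes with an optimal summit the median was −232 bp, and 94.1% were upstream. The summit was intergenic at 4 of the 6 genes, in an untranslated exon at idhb-1 and in a noncoding RNA gene at aco-2. Of all optimal summits 61.9% were intergenic, 5.54% in untranslated exons and 6.48% in noncoding genes, so the intergenic share of the 6 was near that of the list. Another gene also had the summit in its window at 3 of the 6, aco-2, fum-1 and mdh-2, and a coding gene at 2 of them. Over all protein-coding genes with an optimal summit these shares were 56.9% for any gene and 46.7% for a coding gene.

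The DNA at these summits shared no searched motif. Within 50 bp of the summit, GAGAGA (or TCTCTC on the other strand) was at 0 of the 6 genes, against 23.2% of all optimal summits and 7.1% of equally wide windows centred on coding 5′ ends. The longer motif GAGACGCAG was at 0 of 6, against 7.26% and 0.501%, and the E-box CACGTG at 0 of 6, against 8.13% and 1.9%. The nuclear receptor half-site AGGTCA was at 1 of 6, the fum-1 summit, where it reads TGACCT on the strand shown, against 4.21% of all optimal summits and 2.34% of coding 5′ ends. Any of the motifs was at 1 of 6 summits, against 35.4% and 11.3%. With 6 windows these counts describe the sequences only, and a match is not a binding site. The GC content of the 6 windows ranged from 41.6% at cts-1 and fum-1 to 60.4% at idhb-1, with a median of 52.5%, against a median of 44.6% over all optimal summits and 35.6% over coding 5′ ends.

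The other subunits of the cycle were listed separately, and 11 of 16 had an optimal summit in the window (68.8%, against 14.7% of protein-coding genes). Together with the 9 genes this made 17 of 25. The summits of dld-1, sdha-1, suca-1 and dlst-1 lay nearer to a 5′ end of a noncoding gene than to their own. Those of mev-1 and idh-2 lay nearer to a 5′ end of another coding gene. The data do not assign these peaks to one gene. Counting the NAD- and NADP-dependent isocitrate dehydrogenases apart, each of the 9 enzymes had at least 1 gene with an optimal summit, but coverage was often partial. It was 2 of 4 genes for NAD-dependent isocitrate dehydrogenase, 2 of 4 for succinyl-CoA ligase and 1 of 2 for malate dehydrogenase. The enzymes have 1 to 5 genes each, and an enzyme with more genes is more easily counted. No such count was made for other groups of genes, and 8 of the 25 genes had no optimal summit. The strongest of the 25 was dld-1 (signal 538.2, rank 133), the E3 subunit that oxoglutarate dehydrogenase shares with pyruvate dehydrogenase. Its summit lay 239 bp upstream and within the noncoding RNA gene LLC1.120. It ranked 138 in replicate 1 and 142 in replicate 2.

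Window signals at the genes listed for 1 enzyme ranged widely. Among those listed for oxoglutarate dehydrogenase, the E2 subunit dlst-1 had a signal of 99.1 and ogdh-2 had 79.4. The window candidate of ogdh-1 had 21.2 and did not reach the optimal list. An optimal peak 1427 bp upstream of ogdh-1, outside the window, had 97.9, so this contrast depends on the window. In NAD-dependent isocitrate dehydrogenase idhb-1 (190.1) and the gamma subunit idhg-1 (176.3) were in the list, while idha-1 (47.7) and idhg-2 (21.5) were not. Succinate dehydrogenase, which is also complex II of the respiratory chain, had mev-1 (343.5), sdha-1 (329.2) and sdhd-1 (89.5) in the list, while sdhb-1 (41.3) and sdha-2 (29.7) were below it. At mev-1, the cytochrome b subunit, the summit was 142 bp upstream and 117 bp from the 5′ end of the divergent jmjd-4. At sdha-1, the flavoprotein subunit, the summit lay in the noncoding RNA gene D2021.5, 12 bp past a 5′ end of it. It was also 31 bp upstream of the snoRNA gene D2021.6. Succinyl-CoA ligase had the alpha subunit sucl-1 (124.8) and the beta subunit suca-1 (103.6) in the list, while sucl-2 (57.1) and sucg-1 (23.1) were not. The cytosolic aconitase aco-1 (184.1) and the mitochondrial NADP-dependent isocitrate dehydrogenase idh-2 (147.3) were in the list. Both aconitases and both NADP-dependent enzymes thus had an optimal summit in the window. The summits of aco-2 and idh-2, however, lay nearer to a 5′ end of another coding gene.

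**Figure D4:**
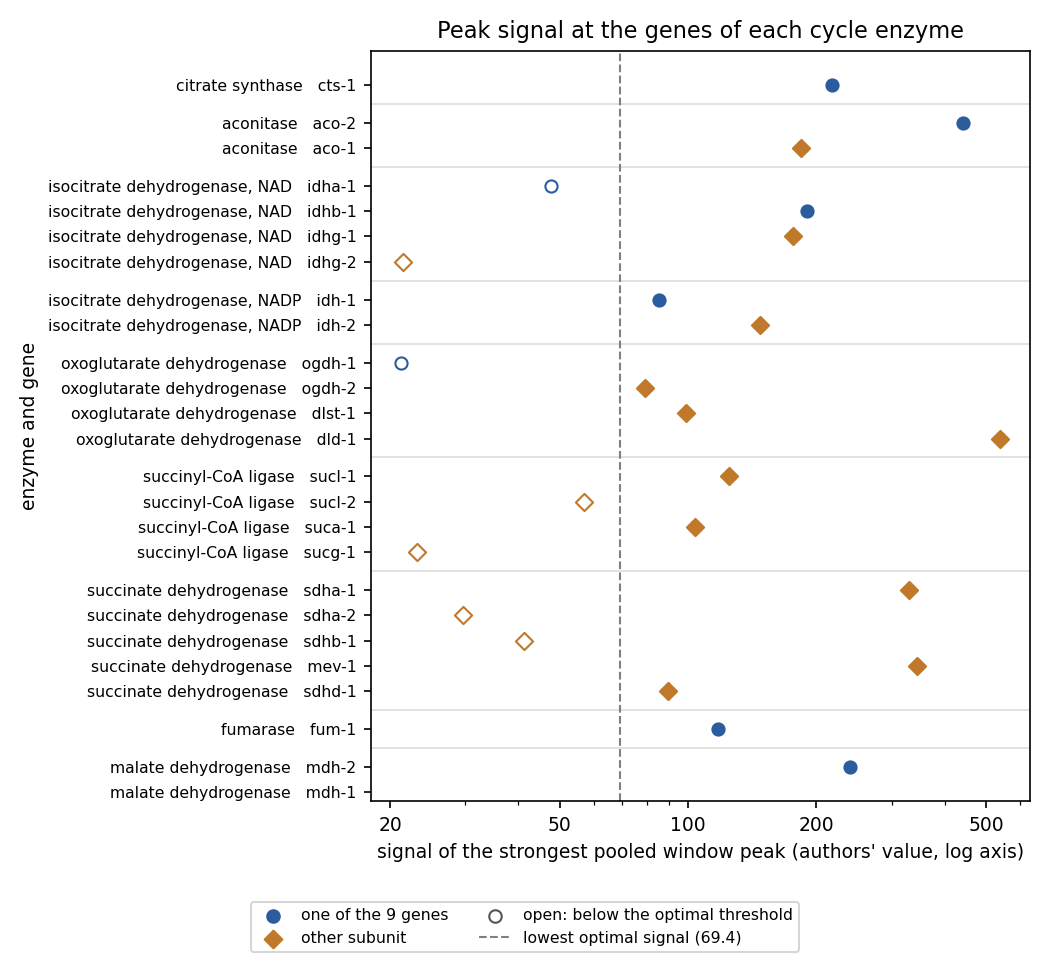
Signal of the strongest pooled peak in the promoter window (the authors' value, log axis) for the 25 cycle genes by enzyme; circles are the 9 genes, diamonds the other subunits, and open symbols lie below the lowest optimal signal of 69.4 (dashed line). Filled symbols range from 79.4 at ogdh-2 to 538.2 at dld-1, and mdh-1 has no pooled candidate in the window. Every enzyme (1 to 5 genes each) has at least 1 filled symbol, which is easier with more genes. No such count was made for other groups of genes.

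Genes that feed or drain the cycle were counted in the same way, and differences between the lists were not tested. The share of all protein-coding genes with an optimal summit, 14.7%, stands behind each count. Of 9 genes for the entry of pyruvate, 4 (44.4%) had one: pdhk-2 (signal 513.0), a kinase that inhibits pyruvate dehydrogenase, pyc-1 (168.6), pyruvate carboxylase, mpc-2 (79.9), a subunit of the mitochondrial pyruvate carrier, and dlat-2 (75.2), an E2 subunit of pyruvate dehydrogenase. The E1 genes pdha-1 and pdhb-1 had none. Of 14 genes for refilling reactions, the glyoxylate cycle and shuttles, 4 (28.6%) had one: misc-1 (284.8), a mitochondrial carrier, icl-1 (202.6), the enzyme of the glyoxylate bypass, pck-2 (178.1), a phosphoenolpyruvate carboxykinase, and nnt-1 (73.1), a transhydrogenase. This last count depended on the replicate, with 3 of 14 among the 4133 strongest peaks of replicate 1 (replicate 2 left out) and 7 of 14 among those of replicate 2 (replicate 1 left out). In the following pathway, oxidative phosphorylation, 36 of 61 genes (59%) had an optimal summit, led by cox-5A (928.6) and atp-1 (475.3). Leaving out the succinate dehydrogenase genes, which both lists hold, this was 33 of 57. The oxidative phosphorylation list was drawn by symbol prefixes, such as nuo-, cox- and atp-, plus some named genes. It therefore need not match the set of subunits of the pathway. In the preceding pathway, glycolysis, 7 of 19 (36.8%) had one, led by hxk-2 (237.7) and gpd-2 (182.1). The median optimal signal was 203.8 for the 6 genes described here, 147.3 for the 11 other cycle subunits and 176.3 for all 17 cycle genes. It was 207.6 for oxidative phosphorylation, 141.2 for glycolysis and 143.5 for all protein-coding genes with an optimal summit.

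For aco-2, the strongest of the 9, the coding genes with the most similar ranks over the 2 replicates were eef-1B.1, which shares its peak (ranks 216 and 239), Y38C1AA.12 (208 and 238) and hmg-6 (232 and 237). Likeness was the sum over the replicates of the absolute log2 ratio of ranks, and it was 0.06 for Y38C1AA.12 and 0.12 for hmg-6.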

How the data were processed

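Peak lists of 2 ChIP-seq samples, biological replicates 1 and 2 of 1 group by the labels, were used in the build ce11. By the deposited file listings, the authors made candidate lists of peaks and background against a control for each replicate and for the replicates combined, and an optimal list by an irreproducible discovery rate threshold. Aligner, peak caller and versions: not given in the sources used here. A signal per peak was deposited, with no stated scale, and was used for ranks and within lists. The deposited −log10 q was 3.99 throughout the optimal list and was not used for ranking. The lists give no read counts, so depth per sample is unknown and no counting error is given for a signal. Lists in ce10 were not used, and 0 columns were left without a sample.

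Summits (1-based) were assigned to genes of Ensembl release 115 (WBcel235, the assembly of ce11; all peaks end within its chromosomes) when they lay in the window from 1000 bp before to 200 bp past any transcript 5′ end, so a summit can count for several genes. Many worm transcripts are trans-spliced, so an annotated 5′ end may lie downstream of the start of transcription. Locations took coding exon, untranslated exon, intron, noncoding gene and intergenic in that order. Motifs were sought on both strands within 50 bp of summits. Peaks of the replicates were matched to an optimal peak by the strongest overlap of 1 bp or more. Python 3.11.15, NumPy 2.4.6 and SciPy 1.17.1 were used, and the window rule was tested on simulated data.

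The genes and lists were chosen with earlier results of these data known. Named were the 9 genes, genes sharing their summits, every listed cycle, pyruvate or shuttle gene with an optimal summit and cycle genes of the same enzymes without one, the strongest pair of oxidative phosphorylation and of glycolysis, and the genes of nearest rank to the strongest of the 9. The E1 genes of pyruvate dehydrogenase and the neighbours rde-4, F43G9.4, F46E10.3, jmjd-4, D2021.5, D2021.6 and LLC1.120 fall outside this rule and were named after their values were seen. Listed symbols absent from the annotation were 1 for pyruvate entry and 3 for shuttles, and these were left out. Alternatives were other windows, peak overlap, nearest 5′ ends, a stricter threshold, all candidates and each replicate alone.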

Additional observations from a re-analysis of the deposited data

How the results depend on the processing

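The count of 6 of the 9 genes ranged from 4 (the stronger 2066 optimal peaks, with cts-1, aco-2, idhb-1 and mdh-2) to 8 (all pooled candidates, or a window of 2000 bp). It was 5 when each summit went to the nearest 5′ end, 7 when the peak interval had to overlap the window, and 6 with either replicate left out. Genes with a candidate in both replicates numbered 8, against 33.5% of all protein-coding genes, but 5 among the 4133 strongest of each. For this last rule the share of all protein-coding genes was not computed, so the 5 has no background beside it. Over the 8 genes with a pooled window peak, which include ogdh-1 and not mdh-1, the median pooled rank was 1659.5. Over all protein-coding genes with such a peak it was 7733.0. With 1 replicate left out, the median over those of the 9 genes with a window peak in the remaining replicate's list was 1733.5 to 2584.0. Of the other cycle and linked genes 19 of 39 had an optimal summit, 12 in the stronger 2066 peaks, 12 by the nearest 5′ end and 37 among all pooled candidates, and 18 to 22 with 1 replicate left out. The share of all protein-coding genes, 14.7%, was 14.3 to 14.7% with 1 replicate left out. It was 8.59% in the stronger 2066 peaks, 45.4% among all pooled candidates, 11.8% with a window of 500 bp, 18.7% with 2000 bp, 15.6% by overlap and 9.69% by the nearest 5′ end. The alternatives differ in which peaks and windows they count, and the reasons for these shifts were not tested. With no read counts, the depth behind the weak candidates at idha-1, ogdh-1 and mdh-1 is unknown, and absence from a list does not show absence of binding.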

Other observations

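A second summit below the optimal threshold accompanied the main one at some of the genes. At idh-1 a pooled candidate (signal 52.2, rank 5739) lay in a coding exon, 527 bp upstream of a downstream 5′ end of the gene, with rank 11347 in replicate 1 and 4941 in replicate 2. At fum-1 one lay in an intron 124 bp past the 5′ end (19.0, rank 22685), present in replicate 2 at rank 12181 and not among the window candidates of replicate 1.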
